A study of Mus musculus with 2 samples.

Results

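Dividing cells were selected from cultured organs of the adult mouse cochlea by the transcripts of 7 mitotic genes, and were then split into an epithelial and a mesenchymal group. In 2 single-cell RNA libraries, a cell barcode was kept when it held at least 500 unique molecular identifiers (UMIs, each standing for 1 captured RNA molecule), at least 300 genes and at most 20% of UMIs from mitochondrial genes. A kept cell was called mitotic when its summed UMIs of Mki67, Top2a, Cdk1, Birc5, Ube2c, Cenpf and Ccnb1 reached 4. It was called epithelial with at least 1 UMI of Epcam, an adhesion molecule of epithelia, and mesenchymal with no UMI of Epcam and at least 1 of Dcn, which encodes the matrix proteoglycan decorin. Of 2913 kept cells, 185 were mitotic: 64 of them epithelial, 77 mesenchymal and 44 of neither lineage. "Mitotic" stands here for cells past this threshold, which may take in cells in S phase and G2 as well as cells in division.

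The study compared explants treated with a reprogramming cocktail with explants treated with vehicle. Both groups came from C57BL/6J mice aged 4 to 6 weeks, and the submitters label the material as sensory epithelium. The cocktail held siFIR and siMxi1, small interfering RNAs, each at 0.02 µM, forskolin at 20 µM, lithium chloride at 8 mM and valproic acid at 1.5 mM, and was given for 4 days. The vehicle was sterile water with 0.1% DMSO, also given for 4 days. Both groups then received ad.Atoh1, an adenovirus carrying the hair cell gene Atoh1, for 2 weeks, so that no group went without it. Each condition is 1 library made from 5 pooled cultures, so that no difference between conditions has a replicate check and no test of one was possible. The 2 libraries were read separately, and a difference between groups of cells was counted only where it passed 2-fold in both.

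A dividing cell copies its DNA in S phase with the MCM helicase, the sliding clamp encoded by Pcna and enzymes of nucleotide synthesis, and then builds up the mitotic machinery in G2. E2F factors drive the S phase genes, and a later wave that depends on B-Myb, FOXM1 and the MuvB complex drives the G2 and mitotic genes. Cyclins switch on the cyclin-dependent kinases (CDKs), and the CDK inhibitors of the Cdkn1 and Cdkn2 families hold them back. In the mature mammalian cochlea, hair cells and their supporting cells do not normally divide, and p27, encoded by Cdkn1b, keeps supporting cells out of the cell cycle. Atoh1 is the transcription factor that starts hair cell formation in the embryo.

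The 7 genes of the rule each act late in the cycle. Cdk1 is the kinase of mitotic entry and Ccnb1 its cyclin partner. Top2a untangles sister DNA, Mki67 coats condensed chromosomes and Cenpf sits at the kinetochore. Birc5 belongs to the chromosomal passenger complex, and Ube2c is the ubiquitin-conjugating enzyme of the anaphase-promoting complex. In the GENCODE M21 annotation of the mouse build GRCm38, their gene bodies lie at Mki67 (chr7:135689784-135716361), Top2a (chr11:98992943-99024189), Cdk1 (chr10:69335146-69352938), Birc5 (chr11:117849251-117855743), Ube2c (chr2:164769898-164778822), Cenpf (chr1:189640606-189688086) and Ccnb1 (chr13:100778650-100786570). Atoh1 lies at chr6:64729125-64731245 in the same annotation.

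Promoters of 4 of the 7 genes that select the cells, and of the S phase gene Mcm6, are shown first because letters known from cell cycle promoters stand in them. The sequences are the 150 bases before the RefSeq transcription start in build GRCm38.p6, 5′ to 3′ on the gene's strand. Capitals mark 3 motifs searched on both strands: TTTGAA, known as the CHR (cell cycle genes homology region), CCAAT, the NF-Y box, and the E2F letters TTTGGCGC, TTTCCCGC and TTTCGCGC, whose matches may overlap each other. Gene bodies of GENCODE M21 start inside the windows of Cdk1 and Ube2c, since the annotations place those starts differently.
Mki67, chr7:135716380-135716529, minus strand: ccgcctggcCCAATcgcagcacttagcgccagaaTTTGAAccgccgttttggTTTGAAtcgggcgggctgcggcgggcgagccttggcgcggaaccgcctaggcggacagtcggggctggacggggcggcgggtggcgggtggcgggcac
Top2a, chr11:99024190-99024339, minus strand: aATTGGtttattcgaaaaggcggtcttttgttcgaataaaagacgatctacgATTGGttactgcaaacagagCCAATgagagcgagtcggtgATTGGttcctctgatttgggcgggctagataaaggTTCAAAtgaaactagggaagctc
Cdk1, chr10:69352913-69353062, minus strand: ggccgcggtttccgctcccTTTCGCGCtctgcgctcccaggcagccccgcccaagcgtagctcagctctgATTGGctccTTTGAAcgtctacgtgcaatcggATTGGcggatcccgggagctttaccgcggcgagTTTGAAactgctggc
Ube2c, chr2:164769779-164769928, plus strand: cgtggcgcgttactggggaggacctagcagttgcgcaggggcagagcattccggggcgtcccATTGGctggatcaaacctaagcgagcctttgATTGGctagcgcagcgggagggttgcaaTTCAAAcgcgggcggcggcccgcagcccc
Mcm6, chr1:128359706-128359855, minus strand: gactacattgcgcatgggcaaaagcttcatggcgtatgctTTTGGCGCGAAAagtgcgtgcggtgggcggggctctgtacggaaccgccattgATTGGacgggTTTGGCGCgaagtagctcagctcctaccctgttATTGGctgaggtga
Mki67 held TTTGAA at -116 and again at -98, counted back from the start site to the first base of the motif, and Cdk1 held it at -71 and -15. Top2a had 1 such motif, at -23, beside 4 CCAAT boxes. Mcm6, an S phase gene, held no CHR but 3 E2F matches, which start at -110, -106 and -47. The promoters printed are those with such matches, and Mcm6 had the most E2F matches of the S phase promoters searched. Of the selecting genes not printed, Birc5 held none of the motifs, and Cenpf and Ccnb1 held CCAAT boxes but no CHR. Over the lists, the CHR letters stood in 4 of the 7 selecting genes (57.1%), in 12 of 40 matched G2/M genes (30%) and in 5 of 30 matched S phase genes (16.7%), against 10.5% of all 27025 promoters. A CCAAT box stood in 85.7%, 72.5% and 63.3% of the same 3 lists, against 27.7% of all promoters. The E2F letters stood in 1 of the 7 selecting genes, 1 of the 40 G2/M genes and 7 of the 30 S phase genes (23.3%), against 1.19% of all promoters. A match is a run of letters and was not checked for binding.

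The cocktail library held 1403 barcodes and 19625208 UMIs, and the vehicle library 1688 barcodes and 23108868 UMIs. After the filters, 1329 cocktail and 1584 vehicle cells remained, with medians of 10391 and 12267 UMIs per cell, and the libraries shared 0 barcodes. The label of a sensory epithelium covers only part of the cells: Epcam was detected in 688 of 1329 cocktail cells and 759 of 1584 vehicle cells, and a further 150 and 156 held Dcn without Epcam. Mitotic cells were deeper than the cells they are set against. Mitotic epithelial cells had medians of 23646 and 26404 UMIs (cocktail and vehicle), against 14898 and 12298 in non-mitotic epithelial cells. Mitotic mesenchymal cells had medians of 39064 and 30389 UMIs, against 19093 and 20509 in non-mitotic mesenchymal cells. A rule of 4 UMIs is easier to pass in a deep cell, and levels are therefore given as counts per 1000000 UMIs (CPM) of the summed cells of a group.

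Among the selected cells, the sum over the 7 genes ran far past the threshold. Mitotic epithelial cells held medians of 13 UMIs in the cocktail library and 22 in the vehicle library, with maxima of 391 and 342. Mitotic mesenchymal cells held medians of 28 and 26 UMIs, with maxima of 211 and 199. At least 100 such UMIs stood in 5 of 27 cocktail and 8 of 37 vehicle mitotic epithelial cells, and in 4 of 34 cocktail and 8 of 43 vehicle mitotic mesenchymal cells. Just inside the threshold, at exactly 4 UMIs, lay 1 and 5 mitotic epithelial and 4 and 1 mitotic mesenchymal cells (cocktail and vehicle). Just outside it, at 3 UMIs, lay 3 and 4 epithelial and 6 and 5 mesenchymal cells. Most of the other non-mitotic cells held none: 585 of 661 cocktail and 644 of 722 vehicle epithelial cells, and 78 of 116 and 81 of 113 mesenchymal cells, had 0 UMIs of all 7 genes.

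**Figure D1:**
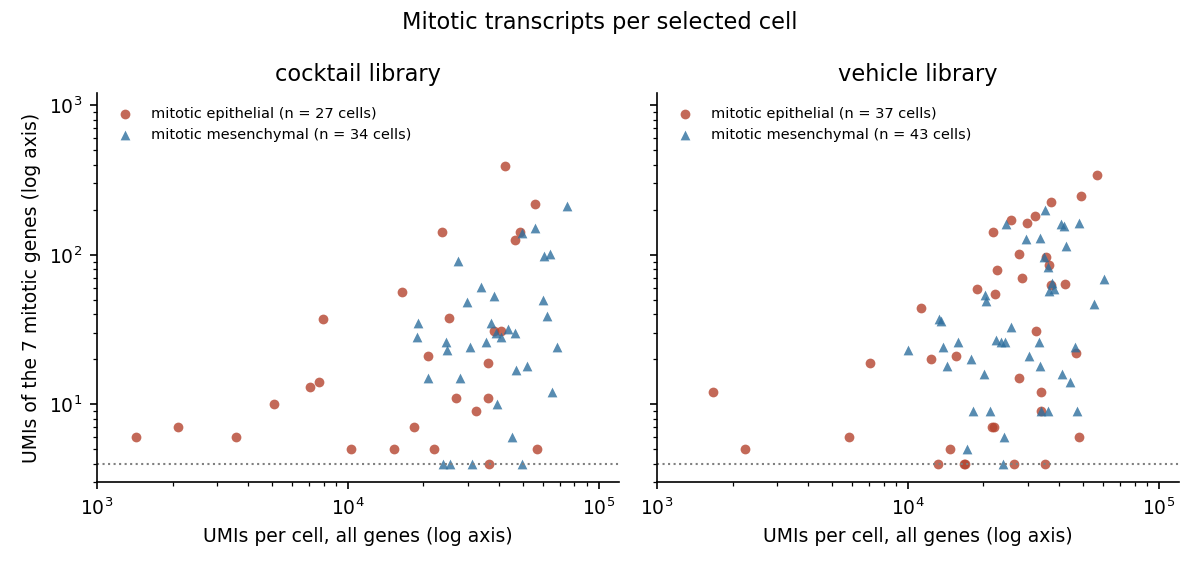
Summed UMIs of the 7 mitotic genes (y, log axis) against all UMIs (x, log axis) in each mitotic epithelial cell (circles) and mitotic mesenchymal cell (triangles), for the cocktail library (left) and the vehicle library (right); the dotted line is the threshold of 4 UMIs. The mitotic epithelial cells reach 391 and 342 UMIs of these genes and the mitotic mesenchymal cells 211 and 199, with cells of both lineages close to the line.

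The selecting genes are a description, since they chose the cells. Mki67 was at 187 and 229 CPM (cocktail and vehicle) in mitotic epithelial cells, where 14 and 21 cells held a UMI, and at 118 and 177 CPM in mitotic mesenchymal cells, where 29 and 38 did. Per cell, Mki67 had a median of 30.8 (range 0 to 1226) CPM in cocktail and 154 (range 0 to 669) in vehicle mitotic epithelial cells, so that in the cocktail library nearly as many epithelial members lacked it as held it. The mesenchymal members held it more evenly, with medians of 92.2 (range 0 to 629) and 170.0 (range 0 to 571) CPM per cell. Top2a was at 458 and 501 CPM in mitotic epithelial cells (cocktail and vehicle), against 229 and 416 CPM in mitotic mesenchymal cells. Cenpf, at 393 and 517 CPM in mitotic epithelial cells, was at 141 and 274 CPM in mitotic mesenchymal cells, and 1 cell held 52.0% of the UMIs in the cocktail epithelial group. These kinetochore and topoisomerase transcripts were higher in the epithelial members of both libraries, but none of the 7 genes was 2-fold apart in both. With scaling by trimmed means (TMM) in place of total UMIs, vehicle Top2a was level between the lineages, with a log2 ratio of -0.04. Under a stricter reading of lineage, from at least 3 UMIs of Epcam and none of Dcn or the reverse, Cenpf (1.39 and 1.52), Ube2c (1.65 and 1.21) and Ccnb1 (1.11 and 1.29) passed 2-fold in both libraries. The epithelial group was also higher in both libraries for Ube2c (424 and 538 against 164 and 304 CPM), Cdk1 (234 and 295 against 121 and 178 CPM) and Ccnb1 (80.4 and 114 against 39.7 and 66.9 CPM). Birc5 was the exception, at 229.6 and 291 CPM in mitotic epithelial and 246 and 337 CPM in mitotic mesenchymal cells.

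A larger part of the Dcn-positive, Epcam-negative cells than of the Epcam-positive cells passed the threshold in both libraries. Of Dcn-positive, Epcam-negative cells, 22.7% were mitotic in the cocktail library (34 of 150, Clopper-Pearson 95% interval 16.2 to 30.2) and 27.6% in the vehicle library (43 of 156, 20.7 to 35.3). Of Epcam-positive cells, 3.92% were mitotic in the cocktail library (27 of 688, 2.60 to 5.66) and 4.87% in the vehicle library (37 of 759, 3.46 to 6.66). The mesenchymal share exceeded the epithelial share by 18.7 percentage points in the cocktail library (Newcombe interval 12.5 to 26.2) and by 22.7 in the vehicle library (16.0 to 30.3). These intervals cover counting error between cells only. When every cell was thinned to 5000 UMIs and shallower cells were left out, 15.0% and 17.0% of mesenchymal cells (cocktail and vehicle) and 3.03% and 4.07% of epithelial cells passed. The difference was then 11.97 points (5.42 to 21.5) in the cocktail library and 12.9 points (6.48 to 21.6) in the vehicle library. With lineage read more strictly, from at least 3 UMIs, the shares were 22.3% and 29.0% of mesenchymal and 4.67% and 5.54% of epithelial cells. The values describe these 2 libraries, since the cells of a comparison share their library. Each share has as its base only captured cells in which Epcam or Dcn was detected. The 491 cocktail and 669 vehicle cells with neither gene are outside both bases, and 2.44% and 4.78% of them were mitotic. The mesenchymal share is thus a share of cells with detected Dcn, not of all Epcam-negative cells.

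Between the conditions, the mitotic shares lay within counting error of each other in both lineages. The cocktail share minus the vehicle share was -0.95 points in epithelial cells (-3.10 to 1.22) and -4.90 points in mesenchymal cells (-14.47 to 4.84). Among cells with at least 10000 UMIs, a limit chosen after the data were seen, the mesenchymal difference was 3.12 points (-8.72 to 15.19). Cells of neither lineage were mitotic in 2.44% of cocktail cells (12 of 491) and 4.78% of vehicle cells (32 of 669), a difference of -2.34 points (-4.50 to -0.09). The non-mitotic cells of neither lineage had medians of 3595 UMIs in the cocktail library and 8365 in the vehicle library, and the part of depth in that difference was not tested. At 5000 UMIs per cell, the same shares were 3.48% and 4.43%.

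**Figure D2:**
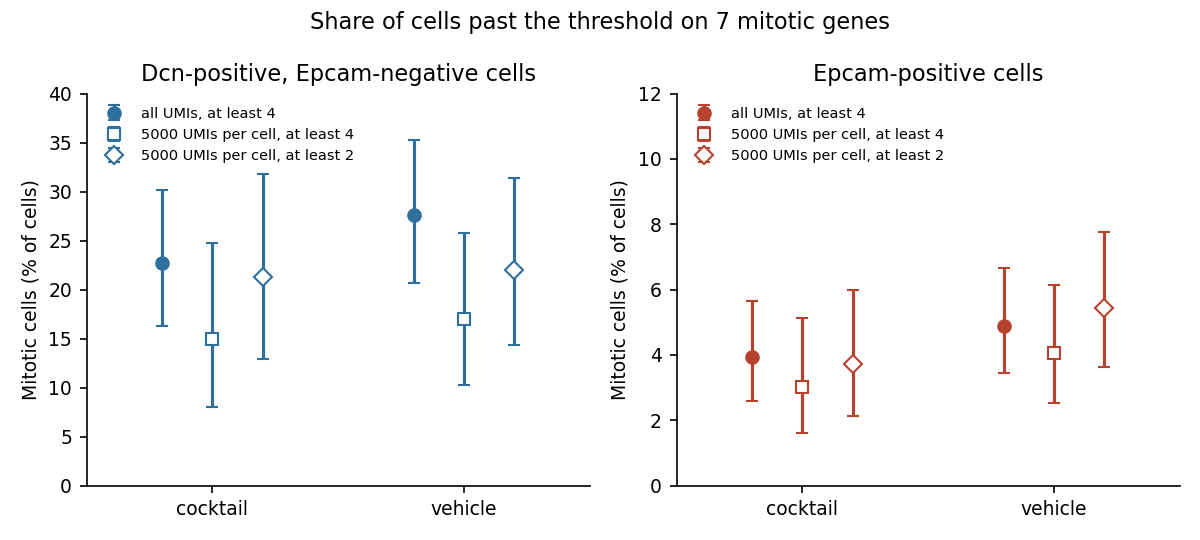
Share of cells past the threshold (y, percent of the cells of a lineage) by library (x), among Dcn-positive, Epcam-negative cells (left) and Epcam-positive cells (right), with separate scales; filled circles use all UMIs, open squares and diamonds use cells thinned to 5000 UMIs with a threshold of 4 or 2 UMIs, and bars are 95% Clopper-Pearson intervals. Mesenchymal shares lie between 15.0% and 27.6%, all above the epithelial shares, which lie between 3.03% and 5.43%, and the intervals of the conditions overlap in each lineage.

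S phase genes were higher in mitotic cells of both lineages. Over all genes with at least 20 UMIs in the compared cells of each library, 642 of 13532 (4.74%) were higher past 2-fold in mitotic than in non-mitotic epithelial cells in both libraries and 812 (6.00%) were lower, 10.7% in all. In mesenchymal cells, 362 of 9987 genes (3.62%) were higher and 195 (1.95%) lower, 5.58% in all. The balance of directions depends on the filter and on single cells: with no filter on low counts, 2448 genes were higher and 936 lower in epithelial cells, and 752 higher and 780 lower in mesenchymal cells. Without the highest cell of each gene in each group, the epithelial counts were 420 higher and 1864 lower. Of the 812 lower genes, 355 had no UMI in mitotic epithelial cells of at least 1 library, where a count of 0.5 was added, and 530 stayed past 2-fold with a floor of 3 UMIs in place of each 0. Of the 42 S phase genes, 39 passed the filter in each lineage. Of these, 35 were higher in epithelial cells, with median log2 ratios of 2.96 and 2.96 (cocktail and vehicle), and 36 in mesenchymal cells, with medians of 2.40 and 2.24. The medians over all tested genes were -0.06 and -0.05 in epithelial and -0.01 and -0.07 in mesenchymal cells. Because the cells were chosen by genes of the same programme, these counts describe the selected cells and test nothing.

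Pcna, the sliding clamp of replication, was at 202 and 185 CPM (cocktail and vehicle) in mitotic epithelial cells, against 33.3 and 38.4 CPM in non-mitotic epithelial cells, with log2 ratios of 2.60 (2.30 to 2.89) and 2.26 (2.001 to 2.52), where brackets give 95% counting intervals. In the mesenchyme it was at 134 and 138 CPM (cocktail and vehicle) in mitotic mesenchymal cells, against 37.0 and 34.2 CPM in non-mitotic mesenchymal cells, with log2 ratios of 1.85 and 2.01. Mcm6, a subunit of the replicative helicase, was at 101 and 96.9 CPM (cocktail and vehicle) in mitotic epithelial cells, against 15.9 and 14.9 CPM in non-mitotic epithelial cells. Its levels in the mesenchyme were 129.6 and 77.6 CPM (cocktail and vehicle) in mitotic mesenchymal cells, against 37.9 and 26.2 CPM in non-mitotic mesenchymal cells. Rrm2, the small subunit of ribonucleotide reductase, was at 133 and 66.0 CPM (cocktail and vehicle) in mitotic epithelial cells, against 0.939 and 0.394 CPM in non-mitotic epithelial cells. Nasp, a histone chaperone, had log2 ratios of 1.70 and 1.29 in epithelial and 1.18 and 1.44 in mesenchymal cells, and Slbp, which binds the stem-loop of histone mRNAs, had 1.13 and 1.50 and 1.16 and 1.44. Rfc2, a subunit of the clamp loader, had 1.01 and 1.44 in epithelial cells, close to the threshold. Tyms, thymidylate synthase, was at 144 and 157 CPM (cocktail and vehicle) in mitotic mesenchymal cells, against 19.2 and 21.1 CPM in non-mitotic mesenchymal cells. Ubr7, Pold3 and Casp8ap2 were among the S phase genes that did not reach 2-fold in both libraries in epithelial cells, and of these Pold3 reached it in mesenchymal cells.

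The G2/M genes that the rule did not use stood further apart than the S phase genes. The rule chose the cells by late cycle genes, so that this gap describes the selected cells and tests nothing. Of 46 such genes, 44 passed the filter in epithelial cells and 45 in mesenchymal cells. Of these, 40 were higher in mitotic epithelial cells, with median log2 ratios of 4.30 and 5.02 (cocktail and vehicle), and 37 in mitotic mesenchymal cells, with medians of 4.45 and 4.79. Of these 37, 8 had no UMI in non-mitotic mesenchymal cells of at least 1 library, and with such genes at their bound the medians were 3.87 and 4.67. Among genes with at least 20 UMIs in each group of each library, 20 of 24 were higher in epithelial and 8 of 15 in mesenchymal cells. Hmgb2, a chromatin protein of dividing cells, was at 1186 and 1133 CPM (cocktail and vehicle) in mitotic epithelial cells, against 284 and 292 CPM in non-mitotic epithelial cells. It was at 916 and 1143 CPM (cocktail and vehicle) in mitotic mesenchymal cells, against 179 and 177 CPM in non-mitotic mesenchymal cells. The log2 ratios of this gene were 2.06 and 1.96 in the epithelium and 2.36 and 2.69 in the mesenchyme. Cks1b and Cks2, small partners of the CDKs, had log2 ratios of 2.54 and 3.59 and of 3.05 and 3.72 in mesenchymal cells. Tubb4b, a tubulin, reached 2-fold in the vehicle library only, with 0.46 and 1.31 in epithelial and 0.70 and 1.73 in mesenchymal cells. Anp32e, a histone chaperone, had 0.87 and 0.24 in epithelial cells, and Cbx5, a heterochromatin protein, 0.93 and 1.13. Tpx2, a spindle assembly factor, had -0.52 and 5.32 in mesenchymal cells, because 1 non-mitotic cocktail cell carried nearly all of that group's 191 CPM.

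Among the genes named by rank, the leading ones were again of replication and division in both lineages. Hist1h1b, a linker histone made in S phase, was at 117 and 151 CPM (cocktail and vehicle) in mitotic epithelial cells, against 0.0939 and 0.197 CPM in non-mitotic epithelial cells, and at 168 and 209.9 CPM (cocktail and vehicle) in mitotic mesenchymal cells, against 0.937 and 1.69 CPM in non-mitotic mesenchymal cells. Hmmr, a spindle-associated protein, was at 225 and 258 CPM (cocktail and vehicle) in mitotic epithelial cells, against 0.751 and 0 CPM in non-mitotic epithelial cells. Its vehicle value in non-mitotic epithelial cells rests on no UMI, and against a floor of 3 UMIs the log2 ratio was at least 9.77. Ccna2, the cyclin of S phase and G2, had log2 ratios of 8.21 and 9.17 in epithelial cells. In the mesenchyme Ccna2 was at 78.6 and 115 CPM (cocktail and vehicle) in mitotic mesenchymal cells, against 0.468 and 0 CPM in non-mitotic mesenchymal cells, where no vehicle UMI stood in the non-mitotic group and the vehicle log2 ratio was at least 6.51. Pclaf, a partner of the sliding clamp, and the mitotic kinase Pbk were also named in both lineages, Pclaf with 7.54 and 7.03 in epithelial and 5.39 and 5.64 in mesenchymal cells. The other epithelial genes of the rank were Aurkb, the Aurora kinase of the passenger complex (9.45 and 8.01), the spindle protein gene Dlgap5 (9.09 and 9.27), Nuf2 of the kinetochore, Rrm2 and the chromokinesin Kif4 (7.42 and 7.28). The other mesenchymal ones were Hist1h2ap, one of many near-identical histone H2A genes between which reads can be split, Cdca8 of the passenger complex (6.83 and 6.24), the spindle checkpoint kinase Bub1, the spindle protein gene Ckap2l and the thymidine kinase Tk1 (6.68 and 5.88). Bub1 had no UMI in non-mitotic mesenchymal cells of either library, and its log2 ratios were at least 5.26 and 5.67 (cocktail and vehicle).

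**Figure D3:**
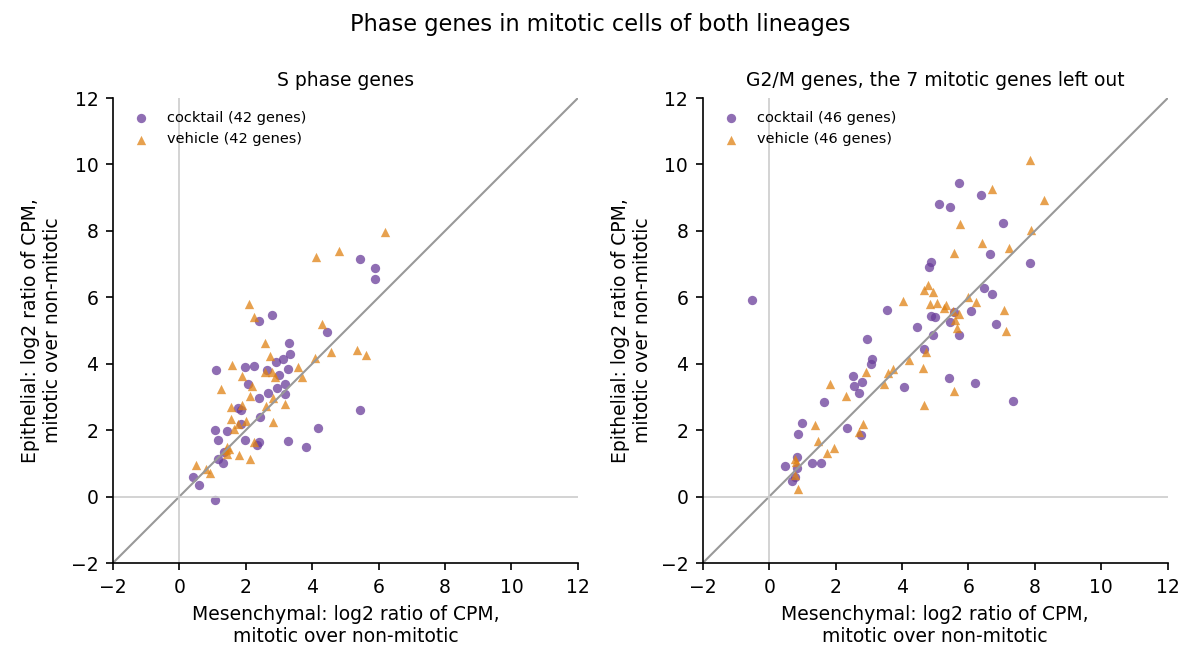
Log2 ratio of CPM, mitotic over non-mitotic, in epithelial cells (y) against mesenchymal cells (x) for the 42 S phase genes (left) and the 46 G2/M genes outside the rule (right), in the cocktail library (circles) and the vehicle library (triangles), with the diagonal drawn; genes under the count filter are included, and 0.5 was added to both counts where one was 0. Nearly all points lie above 0 on both axes, and the G2/M genes reach higher ratios than the S phase genes in both lineages.

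The G2/M genes made up a median of 73.0% of the phase UMIs of a cell in cocktail and 71.4% in vehicle mitotic epithelial cells, and 70.6% and 70.9% in mitotic mesenchymal cells. Single cells ranged from 25% to 95% and from 39.7% to 97.4% in the epithelial groups, and from 33.6% to 95.2% and from 36.5% to 94.8% in the mesenchymal groups. Non-mitotic cells, which hold far fewer phase UMIs, had like medians, 75.4% and 74.8% in non-mitotic epithelial cells (cocktail and vehicle) and 66.9% and 66.7% in non-mitotic mesenchymal cells, so that this share does not set dividing cells apart. No phase was called per cell.

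Among cyclins and CDKs, 6 of 10 genes were higher past 2-fold in mitotic epithelial cells and 5 of 10 in mitotic mesenchymal cells, none lower. Over all tested genes, 4.74% and 3.62% were higher. With at least 20 UMIs in each group of each library, 4 of 7 were higher in epithelial and 1 of 6 in mesenchymal cells. Genes of the cycle chose the cells, so that these counts test nothing. Ccna2, Ccnb2, Ccne1, Ccne2 and Cdk2 passed in both lineages. Ccnd1, the cyclin D that links growth signals to the cycle, was at 506 and 525 CPM (cocktail and vehicle) in mitotic epithelial cells, against 201 and 179 CPM in non-mitotic epithelial cells, with log2 ratios of 1.33 (1.17 to 1.50) and 1.56 (1.41 to 1.70). In the mesenchyme it was at 363 and 499 CPM (cocktail and vehicle) in mitotic mesenchymal cells, against 159 and 266 CPM in non-mitotic mesenchymal cells, with log2 ratios of 1.19 (0.99 to 1.39) and 0.91 (0.75 to 1.07), under 2-fold in the vehicle library. One cell held 32.9% of the Ccnd1 UMIs of cocktail mitotic epithelial cells, and without the highest cell of each group the cocktail ratio was 0.79. Its relatives moved less, Ccnd2 with log2 ratios of 0.12 and 0.09 in epithelial and -0.38 and -0.82 in mesenchymal cells, and Ccnd3 with 0.04 and -0.49 and -0.11 and -0.09. Cdk4, the kinase partner of the D cyclins, had 0.86 and 0.83 in epithelial and 0.65 and 0.53 in mesenchymal cells.

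The CDK inhibitors did not move together. Cdkn1c, which encodes p57, was lower past 2-fold in mitotic epithelial cells, at 29.3 and 20.6 CPM (cocktail and vehicle) in mitotic epithelial cells, against 292 and 235 CPM in non-mitotic epithelial cells, with log2 ratios of -3.32 (-4.03 to -2.69) and -3.51 (-4.22 to -2.88). It was the 1 inhibitor of 7 that was lower, and 3 were higher. Over all tested genes, 6.00% were lower and 4.74% higher. Among inhibitors with at least 20 UMIs in each group of each library, 1 of 4 was lower and 1 of 4 higher. Genes of the cycle chose the cells, so that these counts test nothing. Cdkn2a, Cdkn2c and Cdkn2d, inhibitors of CDK4 and CDK6 of the INK4 family, were higher, Cdkn2d at 80.4 and 79.4 CPM (cocktail and vehicle) in mitotic epithelial cells, against 23.4 and 39.6 CPM in non-mitotic epithelial cells and Cdkn2c at 54.1 and 53.6 CPM (cocktail and vehicle) in mitotic epithelial cells, against 0.657 and 1.28 CPM in non-mitotic epithelial cells. Cdkn1b, which encodes p27, was at 102 and 107 CPM (cocktail and vehicle) in mitotic epithelial cells, against 100.03 and 124 CPM in non-mitotic epithelial cells, with log2 ratios of 0.03 and -0.20: the levels of mitotic and non-mitotic epithelial cells were within 1.5-fold of each other. Cdkn1a, which encodes the p53 target p21, was at 450.5 and 569 CPM (cocktail and vehicle) in mitotic epithelial cells, against 257 and 344 CPM in non-mitotic epithelial cells, higher in both libraries but under 2-fold, with log2 ratios of 0.81 (0.63 to 0.98) and 0.73 (0.60 to 0.86). In mesenchymal cells, 1 of 6 tested inhibitors, Cdkn2c, was higher past 2-fold, against 3.62% of all tested genes. Cdkn2c was not among the 3 inhibitors with at least 20 UMIs in each group of each library. Mesenchymal Cdkn1a had log2 ratios of 0.12 and 0.18. Mesenchymal Cdkn1c turned direction between the libraries, at -2.19 and 3.25, and 1 cell held 98.1% of the vehicle UMIs of the mitotic group.

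Of the transcription factors of the cycle, 6 of 10 tested were higher in mitotic epithelial cells and 5 of 9 in mitotic mesenchymal cells. Over all tested genes, 4.74% and 3.62% were higher. Among factors with at least 20 UMIs in each group of each library, 1 of 4 was higher in each lineage. Genes of the same programme chose the cells, so that these counts test nothing. E2f1, an activating E2F, was at 37.5 and 33.8 CPM (cocktail and vehicle) in mitotic mesenchymal cells, against 15.9 and 15.6 CPM in non-mitotic mesenchymal cells, with log2 ratios of 1.24 and 1.11, and had 1.99 and 2.44 in epithelial cells. Foxm1, the factor of the late wave, was at 23.4 and 24.8 CPM (cocktail and vehicle) in mitotic epithelial cells, against 0.845 and 0.887 CPM in non-mitotic epithelial cells, and at 21.95 and 36.1 CPM (cocktail and vehicle) in mitotic mesenchymal cells, against 0.468 and 0.845 CPM in non-mitotic mesenchymal cells. Mybl2, which encodes B-Myb, had log2 ratios of 2.01 and 2.49 in epithelial and 3.08 and 4.39 in mesenchymal cells. Foxm1, Mybl2 and, among the phase genes, Mcm6 and Tpx2 were chosen after their values were seen. The pocket proteins Rb1 and Rbl2, which hold E2F genes off in resting cells, stayed under 2-fold, Rb1 with 0.38 and 0.23 in epithelial and 0.11 and 0.29 in mesenchymal cells, while their relative Rbl1 passed it in both lineages.

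Mitotic epithelial cells held the general transcripts of an epithelium. Of 15 epithelial genes, 1 was higher past 2-fold in both libraries, the keratin Krt19 (1.73 and 1.57), and none was lower, with list medians of -0.30 and 0.41. Cldn7, a tight junction claudin, was at 293 and 374 CPM (cocktail and vehicle) in mitotic epithelial cells, against 226 and 282 CPM in non-mitotic epithelial cells. Krt8, a keratin of simple epithelia, was at 373 and 1019 CPM (cocktail and vehicle) in mitotic epithelial cells, against 382 and 335 CPM in non-mitotic epithelial cells, and its partner Krt18 at 294 and 1123 CPM (cocktail and vehicle) in mitotic epithelial cells, against 403 and 471 CPM in non-mitotic epithelial cells. Krt8 and Krt18 were thus higher in the vehicle library, with log2 ratios of 1.61 and 1.25, and near or below even in the cocktail library, with -0.03 and -0.46. Whether the conditions differ in this could not be tested with 1 library each. Cldn3 followed the same order, with -0.05 and 0.53.

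Of 9 supporting cell genes, 5 were lower past 2-fold and none higher, with list medians of -1.85 and -1.21. Over all tested genes, 6.00% were lower. Only 4 of the 9 had at least 20 UMIs in each group of each library, and 1 of these 4 was lower. Most of the 5 thus passed the filter through the larger non-mitotic group. S100a1, a calcium-binding protein, was at 1328 and 1778 CPM (cocktail and vehicle) in mitotic epithelial cells, against 4043 and 4044 CPM in non-mitotic epithelial cells, with log2 ratios of -1.61 (-1.70 to -1.51) and -1.19 (-1.26 to -1.12). The others were Slc1a3, the glutamate transporter GLAST, Fabp3, a fatty acid carrier, and Gjb2 and Gjb6, connexins of the cochlear gap junctions. Epyc, Otog and Pla2g7 were lower too in both libraries without passing in both, with log2 ratios of -1.19 and -0.73, -1.85 and -0.74 and -2.41 and -0.37. Of 7 genes of interdental cells and inner sulcus, Ceacam16, a tectorial membrane protein, was lower, at 16.1 and 10.3 CPM (cocktail and vehicle) in mitotic epithelial cells, against 202 and 97.0 CPM in non-mitotic epithelial cells, and 1 cell held 63.6% and 100% of its UMIs in the mitotic groups. Clu, clusterin, was at 4711 and 5902 CPM (cocktail and vehicle) in mitotic epithelial cells, against 15436 and 10406 CPM in non-mitotic epithelial cells, with log2 ratios of -1.71 and -0.82. Tectorial and sulcus genes differed between the libraries for Chil1, with log2 ratios of 1.80 and -0.90.

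Of 13 tested hair cell genes, 7 were lower past 2-fold in both libraries, Espn, Otof, Tmc1, Ptprq, Cabp2, Loxhd1 and Slc17a8, and none was higher. Of these 7, all but Espn and Otof had no UMI in cocktail mitotic epithelial cells. They passed the filter through the larger non-mitotic group, and with a floor of 3 UMIs in place of 0 only Espn, Otof and Ptprq stayed past 2-fold. The list medians were -1.48 and -1.51, and -0.60 and -1.51 with such genes at their bound, so that the count of 7 supports nothing on the list. Espn, the actin bundler of stereocilia, was at 23.4 and 77.4 CPM (cocktail and vehicle) in mitotic epithelial cells, against 47.4 and 159 CPM in non-mitotic epithelial cells, with log2 ratios of -1.02 (-1.84 to -0.31) and -1.04 (-1.39 to -0.70), and 1 cell held 72.0% of its UMIs in vehicle mitotic cells. Pvalb, a calcium buffer, was at 255 and 159.9 CPM (cocktail and vehicle) in mitotic epithelial cells, against 495 and 455 CPM in non-mitotic epithelial cells. Cib2, part of the mechanotransduction complex, was at 61.4 and 39.2 CPM (cocktail and vehicle) in mitotic epithelial cells, against 106 and 120.4 CPM in non-mitotic epithelial cells, and Myo6, an unconventional myosin, had log2 ratios of -0.31 and -0.38. Of the 14 hair cell genes, 6 had no UMI among the cocktail mitotic epithelial cells and 1 had none among the vehicle ones, in groups of 27 and 37 cells.

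Of 13 tested genes of otic epithelium and prosensory cells, 2 were lower, the homeobox gene Prox1 (-1.24 and -4.30) and the Notch effector Hey2 (-1.87 and -1.92), with list medians of -0.75 and -0.60. Over all tested genes, 6.00% were lower. Neither Prox1 nor Hey2 was among the 6 genes with at least 20 UMIs in each group of each library. Both passed the filter through the larger non-mitotic group. Sox9 was at 168 and 125 CPM (cocktail and vehicle) in mitotic epithelial cells, against 207 and 189 CPM in non-mitotic epithelial cells, and Hes1, a Notch effector, at 239.9 and 208 CPM (cocktail and vehicle) in mitotic epithelial cells, against 298 and 211 CPM in non-mitotic epithelial cells. Eya1, a transcriptional cofactor of the inner ear, had log2 ratios of -0.75 and 0.08, and Sox10 -0.78 and -0.13. Sox2, the prosensory factor kept by adult supporting cells, was at 17.6 and 5.16 CPM (cocktail and vehicle) in mitotic epithelial cells, against 15.0 and 36.8 CPM in non-mitotic epithelial cells, with log2 ratios of 0.22 (-0.76 to 1.07) and -2.84 (-4.47 to -1.60). These Sox2 levels rest on 12 and 5 UMIs in 5 and 3 mitotic cells, and the libraries go in opposite directions.

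Of 3 peptide genes listed for this epithelium, Npy and Gal were lower past 2-fold, Gal just past it in the cocktail library. Over all tested genes, 6.00% were lower, and Npy passed the filter through the larger non-mitotic group. Npy, neuropeptide Y, had no UMI in the 27 cocktail and 1 UMI in the 37 vehicle mitotic epithelial cells, against 98.2 and 219 CPM (cocktail and vehicle) in non-mitotic epithelial cells. Against a floor of 3 UMIs, its cocktail log2 ratio was at most -4.48. Gal, galanin, had 34.3% and 37.6% of its mitotic epithelial UMIs in 1 cell (cocktail and vehicle). It was at 3940.4 and 2366 CPM (cocktail and vehicle) in mitotic epithelial cells, against 7892 and 5768 CPM in non-mitotic epithelial cells, with log2 ratios of -1.002 (-1.06 to -0.95) and -1.29 (-1.35 to -1.23), while Cck, cholecystokinin, had -0.28 and -0.90. Genes of other kinds stood beside them on the lower side of the rank. Thrsp, a gene of lipid synthesis, was at 11.7 and 0 CPM (cocktail and vehicle) in mitotic epithelial cells, against 71.8 and 76.9 CPM in non-mitotic epithelial cells, and Rbfox1, a splicing factor, at 221 and 166 CPM (cocktail and vehicle) in mitotic epithelial cells, against 859.6 and 687 CPM in non-mitotic epithelial cells. Fstl4, of the follistatin-like family, had log2 ratios of -2.81 and -2.95, the synaptic adhesion gene Nrxn3 -3.96 and -1.80, the receptor gene Gpr83 -1.59 and -3.98 and Epb42, a membrane skeleton gene, -3.67 in the cocktail library and at most -4.27 in the vehicle library, where no mitotic UMI was found. Apoc3, an apolipoprotein gene, had -1.03 and -1.08, and 1 cell held 76.8% and 76.9% of its UMIs in the mitotic groups, with the direction turned in the vehicle library when cells were averaged rather than summed (0.49).

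A few mitotic epithelial cells carried mesenchymal transcripts, and these set several group values. In the cocktail library, 1 cell with 46324 UMIs, of which 1 was of Epcam and 2 of Dcn, held 1008 of the 1033 Spp1 UMIs of the group, all 25 of Col1a1, 134 of 221 of Col1a2 and 118 of 166 of Vim. A second, with 25224 UMIs, 1 of Epcam and 4 of Dcn, held all 28 UMIs of Csmd1 and 26 of 51 of Col3a1. In the vehicle library, 1 cell with 22215 UMIs and 1 of Epcam held 44 of 45 Col1a2 UMIs and all 16 of Col3a1. All 3 cells had no UMI of Krt8, and their Epcam assignment rests on a single UMI. Over all 15 mesenchymal genes, the summed level was 1922 and 696 CPM (cocktail and vehicle) in mitotic epithelial cells, against 1314 and 1169 CPM in non-mitotic epithelial cells, with 2 of 10 tested genes higher. In all, 4 cocktail and 2 vehicle mitotic epithelial cells held both Epcam and Dcn, and Scrublet called none of the mitotic epithelial or mesenchymal cells a doublet. Scrublet marked 0 cocktail and 2 vehicle cells in all, so that it gives little information on doublets here.

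Macrophage and melanocyte markers were near 0 among the mitotic epithelial cells. Of 7 macrophage and immune genes, 6 had no UMI in either library, and the exception was the lysosomal gene Cd68, which many cells express. Of 4 melanocyte genes, 3 had none, and of the endothelial genes the cadherin Cdh5 had none, while Pecam1 was at 10.2 and 12.4 CPM (cocktail and vehicle) in mitotic epithelial cells, against 18.7 and 14.6 CPM in non-mitotic epithelial cells. The summed levels were 5.85 and 11.3 CPM for the macrophage list (cocktail and vehicle), against 11.2 and 13.4 CPM in non-mitotic epithelial cells. Among glial genes, Pmp22 was higher, at 30.7 and 18.6 CPM (cocktail and vehicle) in mitotic epithelial cells, against 2.44 and 3.94 CPM in non-mitotic epithelial cells, while S100b was lower, with log2 ratios of -1.86 and -2.33. Pmp22, a myelin and growth arrest gene, is expressed by many epithelia and fibroblasts. The glial list summed to 95.1 and 80.4 CPM (cocktail and vehicle) in mitotic epithelial cells, against 109.7 and 153 CPM in non-mitotic epithelial cells. The neuron list summed to 218 and 63.9 CPM, against 71.1 and 76.3 CPM, and most of it was the tubulin Tubb3, at 216 and 45.4 CPM (cocktail and vehicle) in mitotic epithelial cells, against 55.4 and 33.7 CPM in non-mitotic epithelial cells. The osteoblast list summed to 89.2 and 9.28 CPM, against 15.4 and 37.6 CPM, with 56 UMIs of Runx2 in the cocktail mitotic group, 41 of them in 1 cell. The part of these lists in the other results was not tested.

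Mitotic and non-mitotic mesenchymal cells held most mesenchymal genes at levels within 2-fold of each other in at least 1 library. Of 15 such genes, all tested, 1 was lower past 2-fold in both libraries, the surface glycoprotein gene Thy1 (-3.93 and -2.22), and none was higher, with list medians of -0.32 and 0.07. Over all tested genes, 1.95% were lower. Thy1 was not among the 12 genes with at least 20 UMIs in each group of each library, and none of those 12 passed. Vim, vimentin, was at 2304 and 3536 CPM (cocktail and vehicle) in mitotic mesenchymal cells, against 1406 and 1798 CPM in non-mitotic mesenchymal cells, with log2 ratios of 0.71 and 0.98. Sparc, a matrix glycoprotein, was at 3179 and 3855 CPM (cocktail and vehicle) in mitotic mesenchymal cells, against 2858 and 5351 CPM in non-mitotic mesenchymal cells. Col1a2 had log2 ratios of 0.51 and -0.47 and Col3a1 -1.35 and -0.08. Dcn itself, which chose the lineage, was at 394 and 623 CPM (cocktail and vehicle) in mitotic mesenchymal cells, against 1108 and 543 CPM in non-mitotic mesenchymal cells. Only 1 or 2 UMIs of Dcn stood in 13 of 34 cocktail and 14 of 43 vehicle mitotic mesenchymal cells. The same held for 43 of 116 and 42 of 113 non-mitotic ones, so that the lineage of these cells rests on few UMIs. The epithelial list summed to 8.50 and 10.8 CPM in mitotic mesenchymal cells (cocktail and vehicle), against 25.8 and 8.02 CPM in non-mitotic ones.

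Of the genes that were lower in mitotic mesenchymal cells, the first by rank were of several kinds. Igfbp5, a binding protein for insulin-like growth factors, was at 385 and 174 CPM (cocktail and vehicle) in mitotic mesenchymal cells, against 1143 and 1057 CPM in non-mitotic mesenchymal cells, with log2 ratios of -1.57 (-1.71 to -1.44) and -2.60 (-2.81 to -2.41). Igfbp2 was at 4.25 and 25.4 CPM (cocktail and vehicle) in mitotic mesenchymal cells, against 104 and 117 CPM in non-mitotic mesenchymal cells. Trf, transferrin, was at 99.8 and 43.1 CPM (cocktail and vehicle) in mitotic mesenchymal cells, against 491 and 243 CPM in non-mitotic mesenchymal cells, with 1 cell holding 83.7% of the cocktail mitotic UMIs. Car3, a carbonic anhydrase, had no UMI in the cocktail and 2 in the vehicle mitotic cells, against 29.5 and 95.02 CPM in non-mitotic mesenchymal cells, and the cocktail log2 ratio against a floor of 3 UMIs was at most -3.80. Steap4, a metalloreductase, was at 10.6 and 3.08 CPM (cocktail and vehicle) in mitotic mesenchymal cells, against 83.9 and 30.4 CPM in non-mitotic mesenchymal cells. G0s2, an inhibitor of fat breakdown, had log2 ratios of -3.61 and -1.94, Cystm1 -2.56 and -2.05, the splicing factor Rbfox1 -5.32 and -3.81, Plcxd3 -4.36 and -3.84 and the adhesion gene Lrfn5 -4.05 and -3.72. Of the 6 tested genes of fibrocyte and fibroblast subtypes, Car3 and Igfbp5 were lower, while Coch, the cochlin of the spiral limbus and ligament, was at 108 and 154 CPM (cocktail and vehicle) in mitotic mesenchymal cells, against 237 and 163 CPM in non-mitotic mesenchymal cells.

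Bone genes marked part of the mesenchymal cells in both groups. Runx2, the osteoblast factor, was at 194 and 294 CPM (cocktail and vehicle) in mitotic mesenchymal cells, against 198 and 301 CPM in non-mitotic mesenchymal cells, with log2 ratios of -0.03 (-0.25 to 0.20) and -0.03 (-0.22 to 0.15), both with intervals that include 0. Ibsp, bone sialoprotein, was at 786 and 1595 CPM (cocktail and vehicle) in mitotic mesenchymal cells, against 281 and 3966 CPM in non-mitotic mesenchymal cells, higher in the cocktail and lower in the vehicle library, and 1 cell held 85.1% of the cocktail mitotic UMIs. Alpl, alkaline phosphatase, had log2 ratios of -0.63 and -0.84. None of the 4 tested osteoblast genes passed 2-fold in both libraries. The endothelial cadherin Cdh5 was at 36.8 and 24.6 CPM (cocktail and vehicle) in mitotic mesenchymal cells, against 27.6 and 15.2 CPM in non-mitotic mesenchymal cells, and 5 of 7 macrophage and immune genes had no UMI in mitotic mesenchymal cells of either library. The exceptions were Cd68 and Csf1r, the receptor of a macrophage growth factor, at 4.96 and 6.15 CPM.

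Set against each other, the mitotic cells of the lineages differed in lineage genes, among others, and in few of the listed cell cycle genes. Both groups had passed the same threshold on genes of the cycle, so that this likeness describes the selected cells and tests nothing. Of the selecting genes, Cenpf, Ube2c and Ccnb1 passed 2-fold in both libraries under the strict reading of lineage, as given above. Of 9086 tested genes, 954 (10.5%) were higher in mitotic epithelial cells past 2-fold in both libraries and 645 (7.10%) were lower, 17.6% in all. TMM scaling turned that split to 706 higher and 882 lower genes, and moved the median log2 ratio of all genes to -0.09 and -0.09 (cocktail and vehicle), against 0.16 and 0.22 with total UMIs. Of 42 S phase genes, 1 was higher in mitotic epithelial cells, the helicase subunit Mcm2 (1.46 and 1.04), and of 46 G2/M genes outside the rule 2 were, Tubb4b (1.44 and 1.12) and the centrosomal kinase Nek2 (1.87 and 1.04). The list medians were 0.34 and 0.29 for S phase and 0.40 and 0.43 for G2/M, against 0.16 and 0.22 for all genes. Under TMM scaling the list medians were 0.09 and -0.02 for S phase and 0.14 and 0.12 for G2/M, and no gene of either list passed 2-fold in both libraries. None of the 11 transcription factors of the cycle passed 2-fold. Rrm2 had log2 ratios of -0.10 and -1.34 and Tyms -0.15 and -0.82.

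Few cell cycle regulators stood apart. Cdk6, the other kinase partner of the D cyclins, was lower in mitotic epithelial cells, at 8.78 and 17.5 CPM (cocktail and vehicle) in mitotic epithelial cells, against 64.4 and 62.3 CPM in mitotic mesenchymal cells, with log2 ratios of -2.88 (-4.36 to -1.70) and -1.83 (-2.68 to -1.06). It was the 1 of 10 cyclins and CDKs to pass, against 7.10% lower of all tested genes. None of the 8 with at least 20 UMIs in each group of each library passed. Cdk6 thus passed the filter through the mesenchymal cells, and the count supports nothing. Ccnd2 was also lower, at 55.6 and 78.4 CPM (cocktail and vehicle) in mitotic epithelial cells, against 139 and 131 CPM in mitotic mesenchymal cells, under 2-fold in the vehicle library and past it in both under TMM scaling (-1.57 and -1.05). Cdkn1b was the higher in mitotic epithelial cells, at 102 and 107 CPM (cocktail and vehicle) in mitotic epithelial cells, against 59.5 and 42.3 CPM in mitotic mesenchymal cells, with log2 ratios of 0.78 (0.30 to 1.26) and 1.34 (0.86 to 1.84), past 2-fold in the vehicle library only. Ccnd1 and Cdkn1a lay within 1.5-fold of each other between the lineages, with 0.48 and 0.07 and 0.11 and 0.17. Under TMM scaling, Ccnd1 turned below even in the vehicle library, at -0.23.

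The lineage genes follow from the split by Epcam and Dcn and are given as a description. All 12 tested epithelial genes were higher in mitotic epithelial cells, and 10 of 12 tested mesenchymal genes were lower. The 15 epithelial genes summed to 1877 and 3976 CPM (cocktail and vehicle) in mitotic epithelial cells, against 8.50 and 10.8 CPM in mitotic mesenchymal cells. The 15 mesenchymal genes summed to 1922 and 696 CPM, against 8591 and 11408 CPM. Krt8 was at 373 and 1019 CPM (cocktail and vehicle) in mitotic epithelial cells, against 2.12 and 0.769 CPM in mitotic mesenchymal cells, and Krt18 at 294 and 1123 CPM (cocktail and vehicle) in mitotic epithelial cells, against 0.708 and 0 CPM in mitotic mesenchymal cells. Gpx2, a glutathione peroxidase of epithelia, was at 3009 and 1651 CPM (cocktail and vehicle) in mitotic epithelial cells, against 6.37 and 3.08 CPM in mitotic mesenchymal cells, and Wfdc2, a secreted protein of many epithelia, at 3152 and 2655 CPM (cocktail and vehicle) in mitotic epithelial cells, against 21.2 and 17.7 CPM in mitotic mesenchymal cells. Cck was at 1308 and 688 CPM (cocktail and vehicle) in mitotic epithelial cells, against 2.12 and 1.54 CPM in mitotic mesenchymal cells, and Fxyd3, a regulator of the sodium pump, at 376 and 467 CPM (cocktail and vehicle) in mitotic epithelial cells, against 0.708 and 0 CPM in mitotic mesenchymal cells. Mia, a secreted protein first known from melanoma, was at 418 and 486 CPM (cocktail and vehicle) in mitotic epithelial cells, against 0.708 and 0 CPM in mitotic mesenchymal cells. Epyc, a proteoglycan of cochlear supporting cells, was at 249 and 293 CPM with no UMI in mitotic mesenchymal cells, and its log2 ratios were at least 6.87 and 6.99.

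On the mesenchymal side, Spp1, osteopontin, was at 1511 and 25.8 CPM (cocktail and vehicle) in mitotic epithelial cells, against 10687 and 11628 CPM in mitotic mesenchymal cells. Nearly all of the cocktail epithelial value came from the cell with 46324 UMIs, and under the strict reading of lineage the cocktail log2 ratio was -9.45, against -2.82 under the rule. Vim was at 243 and 44.3 CPM (cocktail and vehicle) in mitotic epithelial cells, against 2304 and 3536 CPM in mitotic mesenchymal cells, with a strict cocktail ratio of -7.02. The chemokine gene Ccl2 had log2 ratios of -5.06 and -3.51, and 1 cell held 50 of its 51 cocktail and 54 of its 56 vehicle UMIs in mitotic epithelial cells. Without the highest cell of each group, the Ccl2 ratios were -10.23 (-15.53 to -7.75) and -8.04 (-11.09 to -6.18). Its relative Ccl7 had -6.36 (-8.24 to -4.996) and -6.39 (-8.68 to -4.83). Ibsp had no UMI in cocktail mitotic epithelial cells, where its ratio was at most -7.48 against a floor of 3 UMIs, and 1 UMI in the vehicle ones. Col1a1 had -2.76 in the cocktail library and, with no UMI in vehicle mitotic epithelial cells, at most -6.40 in the vehicle library. Hmga2, a chromatin protein of fetal and growing tissue, had no UMI in mitotic epithelial cells, against 196 and 236 CPM in mitotic mesenchymal cells, and its log2 ratios were at most -5.48 and -6.25 against a floor of 3 UMIs. Csmd1, a large membrane protein, had -1.85 and -5.56, and the cocktail epithelial UMIs were all from 1 cell.

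Of cochlear genes, few passed the filter, and most of those did so through the epithelial cells alone, so that the counts describe and support nothing. Of 9 supporting cell genes, 5 passed and 4 were higher in mitotic epithelial cells, but 1 of the 5, S100a1, had 20 UMIs in each group of each library, at 1328 and 1778 CPM (cocktail and vehicle) in mitotic epithelial cells, against 48.2 and 49.2 CPM in mitotic mesenchymal cells. Of 7 genes of interdental cells and inner sulcus, 4 passed and were higher, Clu at 4711 and 5902 CPM (cocktail and vehicle) in mitotic epithelial cells, against 58.8 and 112 CPM in mitotic mesenchymal cells and Tecta, alpha-tectorin, at 62.9 and 152 CPM (cocktail and vehicle) in mitotic epithelial cells, against 0.708 and 2.31 CPM in mitotic mesenchymal cells. Of 14 hair cell genes, Pvalb, Cib2 and Myo6 passed and were higher, the last with log2 ratios of 1.07 and 1.02, which were under 2-fold with TMM scaling (0.81 and 0.71). Of 14 otic genes, 7 passed the filter and Eya1, Gata3 and Sox10 were higher past 2-fold, Eya1 with 1.12 and 1.26, and Hes1 was at 239.9 and 208 CPM (cocktail and vehicle) in mitotic epithelial cells, against 190.5 and 214 CPM in mitotic mesenchymal cells. With TMM scaling, Gata3 and Sox10 of the otic genes and Pvalb and Cib2 of the hair cell genes still passed.

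**Figure D4:**
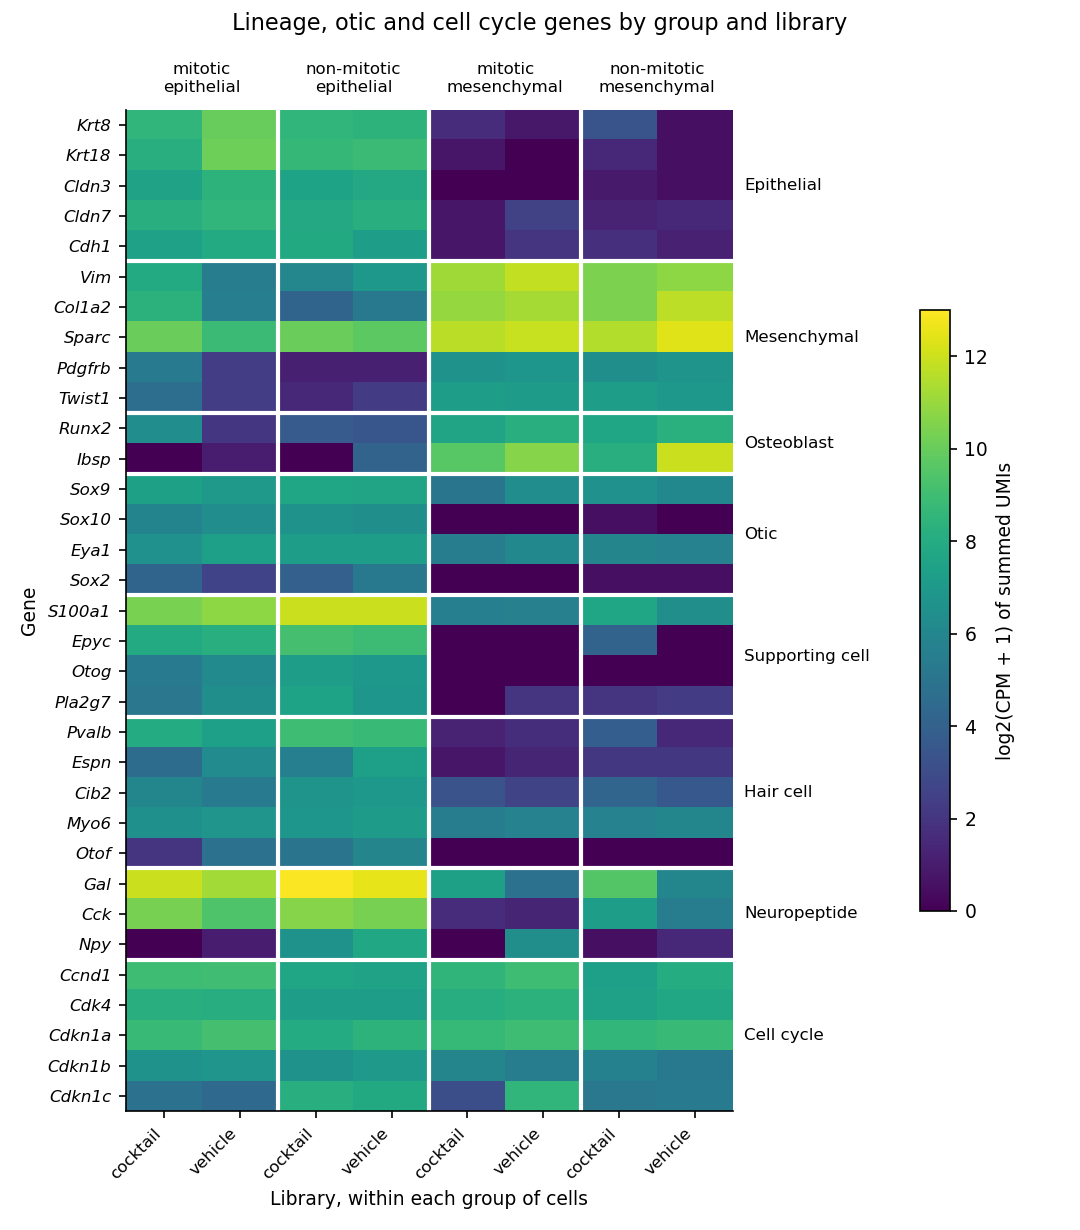
Level of lineage, otic and cell cycle genes (rows), as log2(CPM + 1) of the summed UMIs, in mitotic and non-mitotic epithelial and mitotic and non-mitotic mesenchymal cells (column blocks), each with the cocktail library left and the vehicle library right. Epithelial and mesenchymal genes follow lineage in mitotic and non-mitotic cells alike, with Krt8 at 373 and 1019 CPM in mitotic epithelial cells. Of the cell cycle genes drawn, Ccnd1 and Cdk4 are higher in mitotic cells of both lineages, and Cdkn1b is near level. Cdkn1a is higher in mitotic epithelial cells and near level in the mesenchyme. Cdkn1c is lower in mitotic epithelial cells and turns direction between the libraries in the mesenchyme.

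Atoh1 was not higher in mitotic than in non-mitotic epithelial cells in either library beyond counting error. It was at 24.9 and 47.4 CPM (cocktail and vehicle) in mitotic epithelial cells, against 68.5 and 46.8 CPM in non-mitotic epithelial cells. The exact Poisson intervals of these levels were 14.5 to 39.8 and 34.7 to 63.3 CPM in mitotic cells and 63.6 to 73.6 and 42.7 to 51.2 CPM in non-mitotic cells. The log2 ratios were -1.46 (-2.25 to -0.77) and 0.02 (-0.45 to 0.46), so that mitotic epithelial cells were lower in the cocktail library and even in the vehicle library. Reads of the viral transgene and of the endogenous gene cannot be told apart in these counts, and all cells had been exposed to ad.Atoh1.

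Few mitotic epithelial cells held Atoh1. A UMI stood in 5 of 27 cocktail cells (18.5%, Clopper-Pearson interval 6.30 to 38.1) and 7 of 37 vehicle cells (18.9%, 7.96 to 35.2), against 172 of 661 (26.0%) and 147 of 722 (20.4%) non-mitotic epithelial cells. The mitotic cells were deeper, and at 5000 UMIs per cell the shares were 1 of 24 (4.17%) and 5 of 35 (14.3%), against 70 of 469 (14.9%) and 65 of 537 (12.1%). The 5 cocktail cells held 1, 6, 1, 6 and 3 UMIs of Atoh1, with 11, 4, 143, 219 and 5 UMIs of the mitotic genes. The 7 vehicle cells held 16, 5, 5, 12, 1, 4 and 3 UMIs, with 4, 7, 143, 172, 163, 9 and 22 of the mitotic genes. Atoh1 and strong mitotic expression were thus found in the same cell barcode in 2 cocktail and 3 vehicle cells. One vehicle cell, with 4 mitotic UMIs, held 34.8% of the group's Atoh1, and without the highest cell of each group the vehicle log2 ratio was -0.51.

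In the mesenchyme, Atoh1 was at 26.2 and 2.31 CPM (cocktail and vehicle) in mitotic mesenchymal cells, against 52.9 and 43.5 CPM in non-mitotic mesenchymal cells, with log2 ratios of -1.01 (-1.59 to -0.47) and -4.24 (-6.54 to -2.65). A UMI stood in 7 of 34 (20.6%) cocktail and 2 of 43 (4.65%) vehicle mitotic mesenchymal cells, against 11 of 116 (9.48%) and 17 of 113 (15.0%) non-mitotic ones. The share of cells went against the level in the cocktail library, where 1 non-mitotic cell held 57 of 113 UMIs (50.4%), and no order is read from it. At 5000 UMIs per cell, 1 of 34 and 1 of 43 mitotic mesenchymal cells held a UMI, against 8 of 73 and 6 of 102 non-mitotic ones. Mitotic epithelial cells set against mitotic mesenchymal cells had log2 ratios of -0.08 (-0.997 to 0.79) and 4.36 (2.73 to 6.69). The cocktail value depends on the lineage rule: under the strict reading the ratios were 2.43 and 4.10, and of the 37 cocktail mesenchymal UMIs 31 stood in 2 cells with 2 and 1 UMIs of Dcn. Other cells of the cultures, also exposed to the virus, are set beside them. Macrophages, with at least 4 UMIs of C1qa, C1qb, C1qc and Tyrobp, held none in 6 cocktail and 5 vehicle cells with medians of 5701 and 14888 UMIs, where 3 counts of the cells allow shares of cells with a UMI of up to 50% and 60%. Endothelial cells, with at least 4 UMIs of Cldn5, Esam and Kdr, held none in 20 vehicle cells with a median of 12855 UMIs, which by the same limit allows up to 15%. The 1 such cocktail cell was itself a mitotic mesenchymal cell, as was 1 of the vehicle ones.

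Of the 10 genes of this list, Atoh1 included, 1 was lower past 2-fold in both libraries, the hair cell factor Pou4f3, and none was higher, against 6.00% lower and 4.74% higher of all tested genes. The list medians were -0.58 and -0.69. Pou4f3 had no UMI in cocktail mitotic epithelial cells, and with a floor of 3 UMIs its ratios were at most -0.58 in the cocktail library and -1.46 in the vehicle library, so that the call rests on the added 0.5. Hes6, a Notch pathway gene induced with Atoh1, was at 256 and 129 CPM (cocktail and vehicle) in mitotic epithelial cells, against 357 and 242 CPM in non-mitotic epithelial cells, with log2 ratios of -0.48 (-0.71 to -0.26) and -0.91 (-1.18 to -0.65). Jag2, a Notch ligand of nascent hair cells, was at 57.0 and 58.8 CPM (cocktail and vehicle) in mitotic epithelial cells, against 34.9 and 34.4 CPM in non-mitotic epithelial cells, higher in both libraries under 2-fold. Lhx3, a hair cell homeobox gene, was at 14.6 and 17.5 CPM (cocktail and vehicle) in mitotic epithelial cells, against 23.0 and 33.3 CPM in non-mitotic epithelial cells, with 1 cell holding 70.0% and 88.2% of the mitotic UMIs. In the mesenchyme, Hes6 was at 74.4 and 20.8 CPM (cocktail and vehicle) in mitotic mesenchymal cells, against 125 and 151 CPM in non-mitotic mesenchymal cells, following the order of Atoh1 in that lineage.

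**Figure D5:**
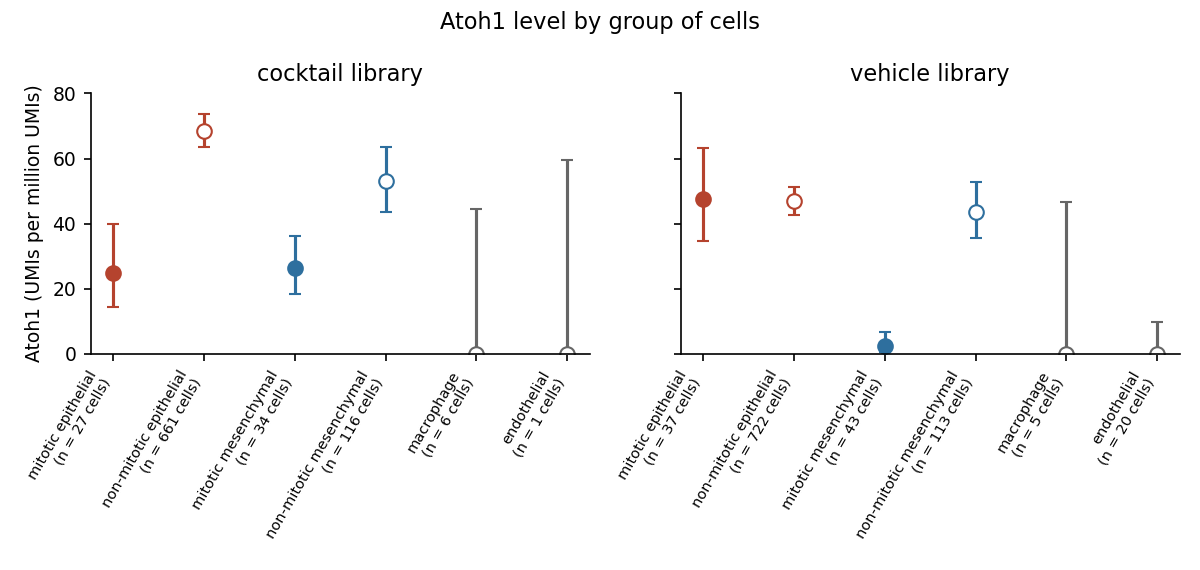
Atoh1 level (y, CPM of the summed cells, bars as 95% exact Poisson intervals) in mitotic and non-mitotic epithelial, mitotic and non-mitotic mesenchymal, macrophage and endothelial cells (x), in the cocktail library (left) and the vehicle library (right). Mitotic epithelial cells lie at 24.9 and 47.4 CPM, against 68.5 and 46.8 CPM in non-mitotic epithelial cells, and vehicle mitotic mesenchymal cells at 2.31 CPM.

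The 44 mitotic cells of neither lineage, 12 cocktail and 32 vehicle, held no UMI of Epcam or Dcn by definition. Mki67 was at 174 and 159 CPM (cocktail and vehicle) in them and Top2a at 461 and 353 CPM. Vim was at 1493 and 2336 CPM and Krt8 at 0 and 3.06 CPM, against 722 and 1255 and 29.3 and 11.2 CPM in non-mitotic cells of neither lineage. Atoh1 was at 20.5 and 22.9 CPM in the mitotic and 125 and 60.3 CPM in the non-mitotic cells of neither lineage. With 12 cells in the cocktail library, no comparison across all genes was made for them.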

How the data were processed

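UMI counts per gene and cell barcode, deposited as 2 matrices of 31053 genes, are raw whole numbers that the authors made with Cell Ranger 5.0.0, per the file headers. The builds GRCm38 and mm10 and the tools STAR, Seurat 3.2.2 and Cell Ranger 5.0 are listed with no role in the submitters' processing notes. The libraries are 10x 3′ v3.1, per the labels' protocols. Cells, members and gene lists were chosen with earlier results of these data known. From the counts, UMIs were summed per group and library and given as CPM, with 95% intervals that cover counting error only: exact Poisson for levels, exact conditional for log2 ratios, Clopper-Pearson for shares and Newcombe for differences of shares. UMIs of one cell are not independent, so that these intervals are too narrow where 1 cell holds much of a gene. There is 1 library per condition, so no test was run. A gene counted as higher or lower past 2-fold when its log2 ratio was at least 1, or at most -1, in both libraries, among genes with at least 20 UMIs over the compared cells in each library; the 7 mitotic genes, Epcam and Dcn were left out. A count of 0 had 0.5 added for a ratio, and bounds use a floor of 3 UMIs in the group. Genes named by rank are the first 10 in each direction (8 for epithelial over mesenchymal mitotic cells), ordered by the smaller of the libraries in the interval bound nearest 0 after leaving out the highest cell of the gene in each group; Xist, Tsix, Y-linked genes and ribosomal, mitochondrial, haemoglobin and unnamed genes were passed over. Of each marker list, up to 4 members with the most UMIs were named, and other members named beside a count of few were chosen after their values were seen. Atoh1, Sox2, Cdkn1a, Cdkn1b, Ccnd1, Epcam, Dcn and the 7 mitotic genes were always given. Doublets were scored with Scrublet in scanpy 1.11.5 and not removed. The ratio and interval code was tested on simulated counts. Python 3.11.15, numpy 2.4.6, scipy 1.17.1, pandas 2.3.3, matplotlib 3.10.9, R 4.3.3 and edgeR 4.0.16, for the TMM factors, were used. Promoters come from RefSeq on GRCm38.p6 and gene positions from GENCODE M21, matched by symbol.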

Additional observations from a re-analysis of the deposited data

Results flagged for a closer look

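Otor, which encodes the secreted protein otoraplin, went in opposite directions in the lineages: its log2 ratios, mitotic over non-mitotic, were 5.18 and 5.61 in epithelial cells (cocktail and vehicle) and -0.33 and -2.85 in mesenchymal cells. The difference between the lineages was not tested. In the mitotic epithelial groups, 13 of 14 cocktail UMIs and all 98 vehicle UMIs of Otor stood in 1 cell each, and each of these cells held 1 UMI of Epcam. Steap4, a metalloreductase, also went in opposite directions, with log2 ratios of 2.13 and 1.52 in epithelial cells and -2.98 and -3.31 in mesenchymal cells. That difference was not tested either. The Steap4 UMIs of the mitotic epithelial groups were spread over 4 cocktail and 7 vehicle cells, with 16 and 17 UMIs in all.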

How the results depend on the processing

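No paired analysis was possible because each condition is 1 library and nothing was tested. The mitotic share of epithelial cells was 6.40% (cocktail) and 7.38% (vehicle) with a threshold of 2 UMIs and 3.43% (vehicle) with 8. Among cells with at least 10000 UMIs, a limit added after the data were seen, it was 7.32% in the vehicle library, and the cocktail mesenchymal share was 34.0%. Thinned to 5000 UMIs, the mesenchymal shares were 15.0% (cocktail) and 17.0% (vehicle). Genes past 2-fold in epithelial cells numbered 2284 (420 higher, 1864 lower) without the highest cell of each gene in each group, a step that weighs more on small groups, and 3384 (2448 and 936) with no filter on low counts. Without that filter they numbered 1532 (752 and 780) in mesenchymal cells and 4194 (2953 and 1241) between mitotic epithelial and mesenchymal cells; more genes are then tested. The vehicle log2 ratio of Atoh1 in epithelial cells was -0.51 with a threshold of 8 UMIs and -0.51 without the highest cells. That of Apoc3 reversed to 0.49 when per-cell CPM were averaged; the cause was not tested. Of the other values under the alternatives tried, 59 main and 1782 further values, of single genes or list medians, stayed within their limits. A further 231 values of single genes or list medians moved past them. The limits were counting intervals, 1.5 times the count or, for a list median, the median distance of the list's genes from it. Depth limits the scarce genes: a mitotic group summed to between 683687 and 1412218 UMIs.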
